A study of Mus musculus with 6 samples.

Results

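Tcap, Mylk4, Lrrc30, Casq2 and Myod1 are 5 genes, most of them known from striated muscle, that were followed in the dorsal skin of Bmal1 mutant mice. They were chosen by their difference in mean intensity between Bmal1-/- and Bmal1+/- skin, so that difference is given below as a description and was not tested. Each has 1 probe set of its own, and together they make up 5 of the 19938 genes with such a probe set. Skin was taken from 3 Bmal1-/- mice, all female, and from 3 Bmal1+/- littermates, 1 male and 2 female, on a C57BL/6J background. The labels give postnatal day 22 for all 6 mice, with day 23 in a second label of Bmal1+/- replicate 1, which is also the male. By histology, hair follicles were resting (telogen) in all 6. RNA of each mouse was hybridised to its own Affymetrix gene array. No Bmal1+/+ mouse was profiled, so the littermates that serve as controls carry 1 mutant allele themselves. The hour at which these mice were sampled is unknown here. All levels below are linear intensities of a probe set, as deposited. A log2 fold change is the mean of log2(intensity + 16) in Bmal1-/- skin minus that in Bmal1+/- skin, a scale that understates the change of a dim gene.

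The striated muscle of mouse dorsal skin is mainly the panniculus carnosus, a thin muscle sheet under the dermis. Its fibres are packed with sarcomeres, in which titin is anchored at the Z-disc, myosin heads carry light chains that kinases phosphorylate, and calcium released from the sarcoplasmic reticulum starts contraction. The circadian clock is driven by the heterodimer CLOCK/BMAL1, which binds E-boxes. It runs in muscle as in other tissues, and Tcap and Myod1 have been described in mouse muscle as genes under its control. TCAP, or telethonin, caps titin at the Z-disc. MYLK4 is a kinase of the myosin light chain kinase family, CASQ2 is the calsequestrin of heart and slow muscle that stores calcium in the sarcoplasmic reticulum, and MYOD1 is a bHLH transcription factor that commits cells to the muscle lineage and binds E-boxes of its own. LRRC30 is a protein with leucine-rich repeats.

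The stretch from 250 bases before to 50 bases after the transcription start was available from RefSeq (build GRCm38.p6) for 3 of the 5 genes, Mylk4, Lrrc30 and Casq2, and is shown because Mylk4 was lower and the others higher in Bmal1-/- skin. Capitals mark matches on either strand to 6 motifs that were searched, namely the E-box CACGTG and the E'-box CACGTT of CLOCK/BMAL1, the E-box CAGCTG that myogenic factors bind, the D-box TTANGTAA, the half-site AGGTCA bound by REV-ERB and ROR receptors, and the MEF2 consensus. The E-box and the E'-box differ in their last letter. The Mylk4 stretch belongs to the single start that the table gives for this gene and lies inside the gene's annotated span.
Mylk4, chr13:32783915-32784214, minus strand: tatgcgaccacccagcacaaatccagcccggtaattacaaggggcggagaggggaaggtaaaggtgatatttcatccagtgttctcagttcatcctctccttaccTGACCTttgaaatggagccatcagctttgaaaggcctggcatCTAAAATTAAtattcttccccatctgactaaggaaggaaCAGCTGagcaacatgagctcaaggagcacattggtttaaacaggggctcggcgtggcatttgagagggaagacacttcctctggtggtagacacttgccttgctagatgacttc
Lrrc30, chr17:67632674-67632973, minus strand: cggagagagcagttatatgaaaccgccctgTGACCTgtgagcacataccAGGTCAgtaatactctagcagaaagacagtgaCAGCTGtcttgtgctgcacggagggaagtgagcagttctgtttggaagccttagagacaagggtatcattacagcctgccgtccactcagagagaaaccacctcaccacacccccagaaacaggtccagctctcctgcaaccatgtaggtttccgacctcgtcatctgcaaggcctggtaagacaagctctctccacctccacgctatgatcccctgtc
Casq2, chr3:102086165-102086464, plus strand: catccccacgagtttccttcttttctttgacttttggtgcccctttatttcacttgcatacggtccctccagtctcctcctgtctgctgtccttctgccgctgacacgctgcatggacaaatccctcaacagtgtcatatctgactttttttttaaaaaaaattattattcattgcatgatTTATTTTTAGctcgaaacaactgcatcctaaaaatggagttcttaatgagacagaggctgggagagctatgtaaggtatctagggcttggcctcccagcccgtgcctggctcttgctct

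None of these 3 stretches holds the E-box, the E'-box or the D-box, which are found in 7.15%, 4.68% and 2.32% of all 32851 promoter stretches of that length. CAGCTG stands once in Mylk4, 64 bases before the start, and once in Lrrc30, 169 bases before the start, and 16.3% of all stretches have it. AGGTCA or its reverse complement TGACCT occurs once in Mylk4, at 145 bases before the start, and as 2 inverted copies in Lrrc30, at 220 and 201 bases before the start, against 16.3% of all stretches with at least 1. A MEF2 consensus match lies 103 bases before the start of Mylk4 and 69 bases before that of Casq2, and 3.19% of all stretches hold one. A match is a description of the letters in this window only.

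Tcap, on chromosome 11, had 149.7, 177 and 251 in Bmal1-/- mice, against 1316, 2074 and 1333 in Bmal1+/- mice. The genotypes did not overlap, and the lowest Bmal1+/- mouse was 5.24 times the highest Bmal1-/- mouse. Means were 193 ± 52.4 in Bmal1-/- skin and 1574.5 ± 433 in Bmal1+/- skin (SD, n = 3 each), so that Bmal1+/- was 8.17 times as high (log2 fold change −2.93). This was number 5 in size among the 23410 probe sets compared.

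Mylk4 stood first in that order. Its intensity was 64.4, 30.25 and 59.9 in Bmal1-/- mice, against 534, 1007 and 494 in Bmal1+/- mice. The lowest Bmal1+/- value was 7.68 times the highest Bmal1-/- value, and replicate 2 was the lowest of the Bmal1-/- mice and the highest of the Bmal1+/- mice. Mean intensity was 51.5 ± 18.5 in Bmal1-/- skin and 678 ± 285 in Bmal1+/- skin (SD, n = 3 each), 13.2 times as high in Bmal1+/-, with a log2 fold change of −3.33. The size of this difference moved with the offset, to −3.69 with 1 added to the intensity and to −2.63 with 64 added, since the Bmal1-/- values lie near or under the larger offset.

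Lrrc30 was higher in Bmal1-/- skin. It had 556, 437.5 and 771 in Bmal1-/- mice, against 144, 155 and 156 in Bmal1+/- mice. The 3 Bmal1+/- mice lay within a factor of 1.08 of each other, whereas the Bmal1-/- mice spread over a factor of 1.76. Means were 588 ± 169 in Bmal1-/- skin and 152 ± 6.6 in Bmal1+/- skin (SD, n = 3 each), a ratio of 3.88 and a log2 fold change of 1.81, number 3 in size among the probe sets that were higher in Bmal1-/-.

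Casq2 intensity was 1046, 878 and 1057 in Bmal1-/- mice, against 448, 607 and 573 in Bmal1+/- mice. Every Bmal1-/- mouse lay above every Bmal1+/- mouse, by a factor of 1.45 or more. Casq2 averaged 993.5 ± 100.0 in Bmal1-/- skin and 543 ± 83.5 in Bmal1+/- skin (SD, n = 3 each), a ratio of 1.83 and a log2 fold change of 0.86. Its paralog Casq1, the calsequestrin of fast muscle, had 5434, 4566 and 5780 (mean 5260 ± 625) in Bmal1-/- mice, against 5561, 7778 and 5167 (mean 6169 ± 1410) in Bmal1+/- mice. The genotypes overlapped for Casq1, and it did not pass the test (log2 fold change −0.21, SE 0.14, adjusted p = 0.7 from limma over all 23410 probe sets).

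Myod1, on chromosome 7, had 403, 355 and 536 in Bmal1-/- mice, against 201, 266 and 236.5 in Bmal1+/- mice. The genotypes did not overlap, but the gap was the smallest of the 5, with the lowest Bmal1-/- mouse at 1.33 times the highest Bmal1+/- mouse. Means were 431 ± 93.8 in Bmal1-/- skin and 235 ± 32.7 in Bmal1+/- skin (SD, n = 3 each), a ratio of 1.84 and a log2 fold change of 0.82. Thus 2 of the 5 genes were lower and 3 were higher without overlap. Over all 23410 probe sets compared, the values of the genotypes did not overlap for 14.7%, with Bmal1-/- lower for 7.68% and higher for 6.99%. The 5 genes were chosen on this contrast, so nothing is read from their count.

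**Figure D1:**
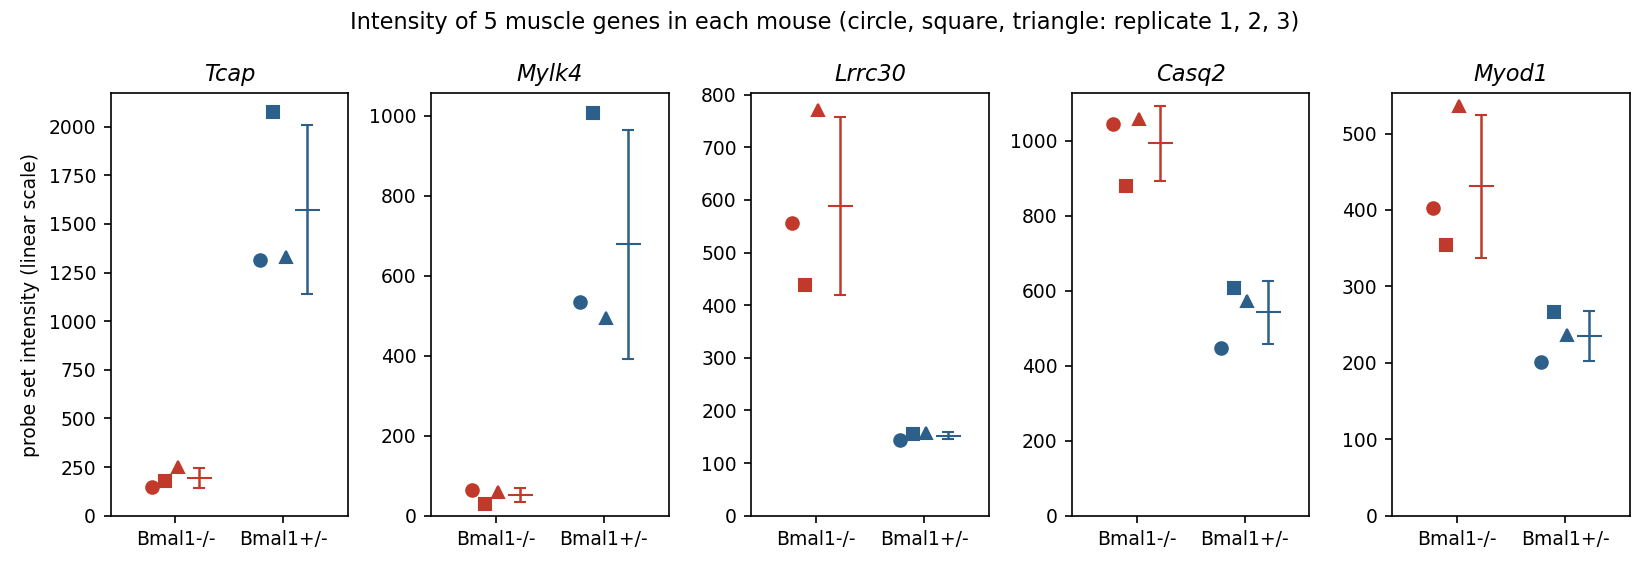
Probe set intensity (vertical axis, linear scale from 0, a different range in each panel) of the 5 genes in each mouse, Bmal1-/- on the left of each panel and Bmal1+/- on the right, with a bar for mean ± SD over the 3 mice of a genotype beside the points. Tcap and Mylk4 lie at 251 and 64.4 or below in Bmal1-/- mice, and Lrrc30, Casq2 and Myod1 lie above every Bmal1+/- mouse in all 3 Bmal1-/- mice.

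The 5 genes also varied between mice of the same genotype. The choice of genes did not use this spread itself, but a choice by large difference over few mice favours genes that vary more. The comparison with all probe sets below is therefore a description. Pooled over both genotypes, the SD of log2(intensity + 16) within a genotype was 0.498 for Mylk4, 0.361 for Tcap, 0.285 for Lrrc30, 0.248 for Myod1 and 0.190 for Casq2. These values were larger than those of 99.6%, 98.8%, 96.6%, 93.9% and 84.1% of all 23410 probe sets compared. The level of striated muscle genes in the skin samples varied too. The mean log2(intensity + 16) of a list of 28 striated muscle genes, which holds none of the 5, was 11.41, 11.24 and 11.56 in Bmal1-/- mice, against 11.17, 11.73 and 11.41 in Bmal1+/- mice. The genotypes overlapped in this mean. In bulk skin, fewer muscle cells and less RNA per muscle cell cannot be told apart.

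In the 4 mice whose muscle list lay farthest from the mean of their genotype, all 5 genes deviated in the direction of the list. In Bmal1+/- replicate 2, in which the muscle list was 0.29 above the mean of its genotype on the log2 scale, Mylk4 was 0.63, Tcap 0.43, Myod1 0.18 and Casq2 0.17 above theirs, and Lrrc30 only 0.03. In Bmal1-/- replicate 2, in which the list was 0.165 below its mean, all 5 were below theirs, by values from −0.08 for Tcap to −0.50 for Mylk4. In Bmal1-/- replicate 3 the list was 0.16 above its mean and the 5 genes lay between 0.09 (Casq2) and 0.42 (Lrrc30) above theirs, and in Bmal1+/- replicate 1, the male, the list was at −0.27 and the genes between −0.26 (Mylk4) and −0.07 (Lrrc30). Tcap and Mylk4 parted in Bmal1-/- replicate 1, where the list lay within 0.01 of its mean, Tcap was at −0.30 and Mylk4 at 0.29. Bmal1+/- replicate 3 did not follow the list either. There the list was at −0.03, while Mylk4 was at −0.37 and Tcap at −0.205, and Lrrc30, Casq2 and Myod1 were at 0.04, 0.09 and 0.02. These are deviations of 6 mice in 2 groups and were not tested.

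Shifting each array so that the mean of the muscle list was the same on all 6 narrowed the spread within genotypes. The pooled SD on the log2 scale became 0.330 for Mylk4, 0.226 for Tcap, 0.238 for Lrrc30, 0.121 for Myod1 and 0.0971 for Casq2. Lrrc30 was the exception among Bmal1+/- mice, where its SD on the log2 scale was 0.238 after the shift and 0.0574 before it. The log2 fold changes after the shift were −2.89 for Tcap, −3.29 for Mylk4, 1.85 for Lrrc30, 0.90 for Casq2 and 0.86 for Myod1, and the genotypes did not overlap for any of them. Among the females alone, 3 Bmal1-/- and 2 Bmal1+/- mice, the log2 fold changes were −3.04, −3.46, 1.78, 0.73 and 0.72 in the same order.

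**Figure D2:**
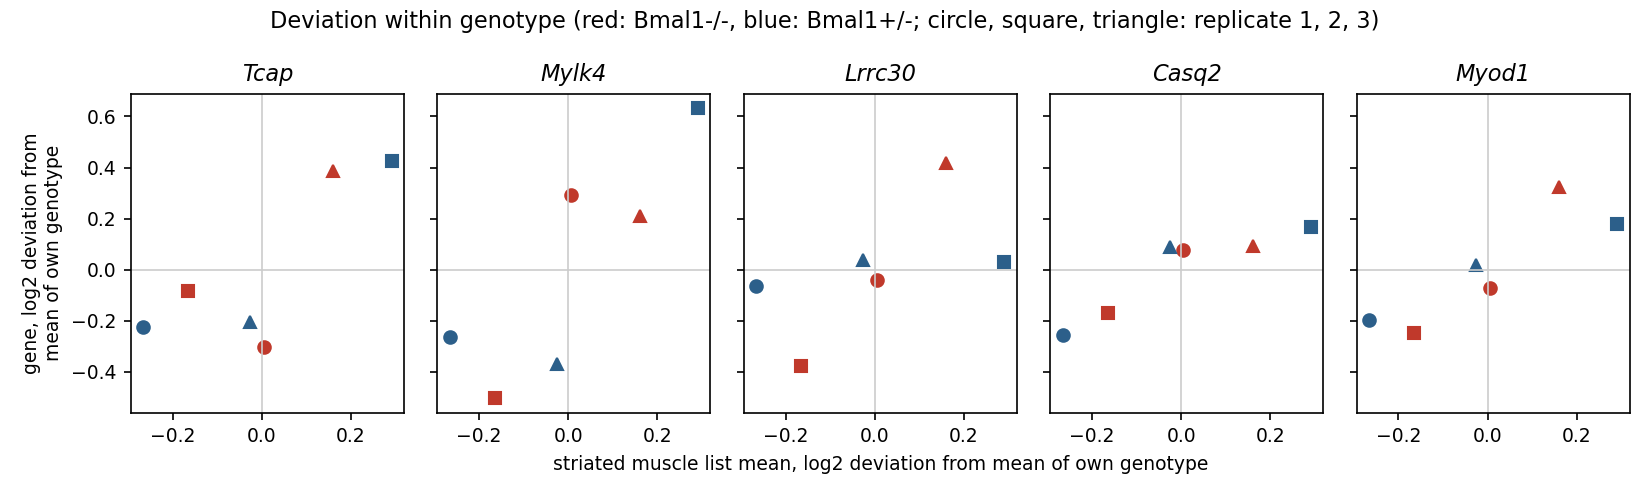
Log2 deviation of each gene from the mean of its own genotype (vertical axis) against the same deviation of the mean of the 28 striated muscle genes (horizontal axis) in the 6 mice, with red for Bmal1-/- and blue for Bmal1+/- and 1 symbol for each replicate number. Bmal1+/- replicate 2 lies highest for Mylk4, at 0.63, and Bmal1-/- replicate 2 lies lowest, at −0.50.

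The patterns were compared by the root mean square difference over the 6 arrays between log2(intensity + 16) values, each centred on the gene's own mean. Tcap and Mylk4 differed by 0.383 on this measure, and among 19933 other genes 4 were closer to Tcap. The 3 closest genes were the same for both. For Tcap they were Trim12a, a tripartite motif gene (0.256), Nr1d1 (0.291) and Nr1d2 (0.292), and for Mylk4 they were Nr1d2 (0.301), Nr1d1 (0.318) and Trim12a (0.382). Nr1d1 and Nr1d2 encode the REV-ERB nuclear receptors of the clock, and had log2 fold changes of −3.11 and −3.27. Trim12a had 10.3, 9.93 and 24.8 in Bmal1-/- mice, near or under the offset of 16, against 267, 286 and 266 in Bmal1+/- mice.

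Lrrc30 was closest to Ppp1r3c, which targets protein phosphatase to glycogen (0.201), then to the protease gene Prss55 (0.313) and to Nfil3, a bZIP repressor of the clock (0.361). Ppp1r3c had 2568, 2323 and 3222 in Bmal1-/- mice, against 582, 951 and 717 in Bmal1+/- mice. It shared with Lrrc30 the highest of the Bmal1-/- levels in replicate 3 and the lowest in replicate 2. The mean of the striated muscle list had the same order among the Bmal1-/- mice.

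Casq2 and Myod1 differed from each other by 0.124, and among the 19933 other genes 2 were closer to Casq2. Chrnb1, the beta subunit of the acetylcholine receptor of muscle, was among the 3 closest genes of both, at 0.111 from Casq2 and 0.097 from Myod1. The others were Arhgap20 (0.101) and Myom3 (0.125), a myomesin of the sarcomere's M-band, for Casq2. For Myod1 they were Asb2 (0.073), a substrate receptor of a muscle ubiquitin ligase, and Ddit4l (0.124), an inhibitor of mTORC1 signalling. Asb2 had 955, 793 and 1322.5 in Bmal1-/- mice, against 439, 585 and 553 in Bmal1+/- mice. Among the Bmal1-/- mice it followed the order of Myod1, which was also that of the striated muscle list. The measure rests mostly on the difference between genotypes by which the 5 genes were chosen, and all patterns share the same 6 arrays.

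**Figure D3:**
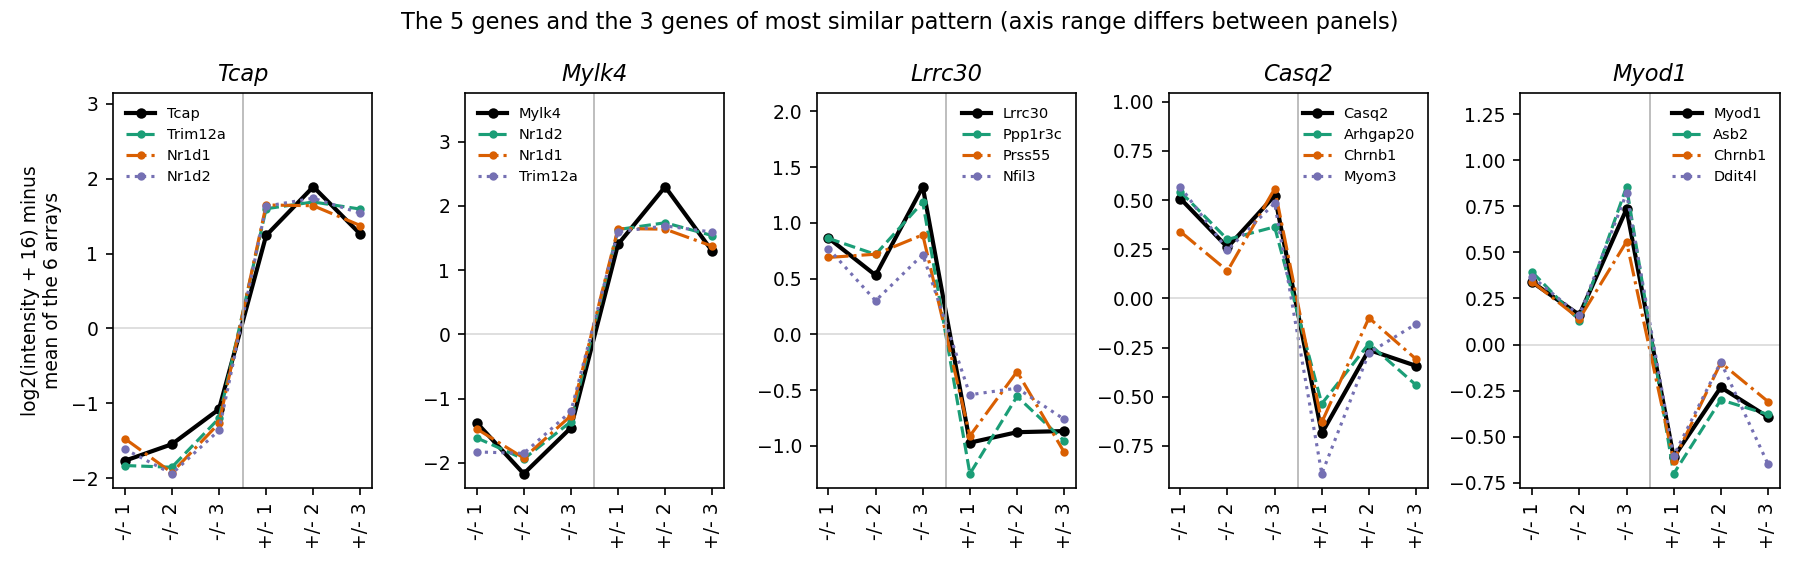
Log2(intensity + 16) minus the gene's mean over the 6 arrays (vertical axis, range differs between panels) in each mouse (horizontal axis, Bmal1-/- on the left of the grey line and Bmal1+/- on the right), for each of the 5 genes (black) and its 3 closest genes (colours). Tcap and Mylk4 share Nr1d1, Nr1d2 and Trim12a, and Casq2 and Myod1 share Chrnb1.

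Genes related to the 5 by function, tissue or symbol, and genes of other skin cell types, were then examined. Lists for titin and the Z-disc, myosin light chains, calcium storage, myogenic factors, other LRRC symbols, fibre types, the neuromuscular junction, muscle fuel use and the other cell types of skin held 231 measured genes in all. None of the 231 passed limma at an adjusted p under 0.05, and 0.231% of all 23410 probe sets did (0.132% lower and 0.0982% higher in Bmal1-/-). At an unadjusted p under 0.05 they numbered 26 (11.3%), against 8.77% of all probe sets compared. A regularised test built after Cyber-T called 8 of the 231, a larger share than its 1.23% of all probe sets. The limma fit without an intensity trend called 0 of the 231. The lists were chosen with earlier results of these data known, so these shares are a description.

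Among 19 Z-disc genes and titin partners of TCAP the median log2 fold change was 0.05, and all lay nearer to 0 than Tcap. The median over all 23410 probe sets compared was 0.01. The 2 with the largest difference were Pdlim3, a PDZ and LIM protein of the Z-disc, at 0.48 (SE 0.16, adjusted p = 0.41 from limma), and Trim63, a ubiquitin ligase of muscle, at 0.36 (SE 0.16, adjusted p = 0.56). For 18 genes of myosin light chains, their kinases and their phosphatase, the median was −0.03, with a range from −0.19 for Myl6b to 0.11 for Myl3. Of the other kinases in the family of Mylk4, Mylk averaged 825 ± 51.2 in Bmal1-/- mice and 910.0 ± 21.9 in Bmal1+/- mice (SD, n = 3). Mylk2, the skeletal muscle kinase, averaged 799 ± 333 in Bmal1-/- mice and 776.5 ± 165 in Bmal1+/- mice, and Mylk3, the cardiac one, 142 ± 2.83 in Bmal1-/- mice and 138 ± 7.49 in Bmal1+/- mice. Their log2 fold changes were −0.14, −0.01 and 0.04, and the adjusted p from limma was 0.59 or above for each. Of 64 other genes with an LRRC symbol, the median was 0.03, with a range from −0.31 for Lrrc42 to 0.33 for Lrrc3c. Lrrc30 lay outside this range. Tcap, Mylk4 and Lrrc30 were chosen for a large difference on this contrast, so lying beyond the genes of their lists follows from that choice.

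For 22 genes of calcium storage and release the median log2 fold change was 0.07. One of them, Sln, had a larger difference than Casq2. Sln encodes sarcolipin, an inhibitor of the calcium pump, and had 249, 187 and 275 in Bmal1-/- mice, against 72.2, 83.2 and 182 in Bmal1+/- mice. Its log2 fold change was 1.06 (SE 0.27, adjusted p = 0.25 from limma), and Bmal1+/- replicate 3 lay close to the lowest Bmal1-/- mouse. Of 18 myogenic regulators and partners of MYOD1 the median was 0.09. Myf6, the myogenic factor most abundant in mature fibres, had 1078, 846 and 1286 in Bmal1-/- mice, against 482, 949 and 543.5 in Bmal1+/- mice, and the genotypes overlapped (log2 fold change 0.73, SE 0.23, adjusted p = 0.38 from limma). Myf5 and Myog, the other factors of the MYOD1 family, did not pass with limma, at 0.285 (adjusted p = 0.55) and 0.03 (adjusted p = 0.97) on the log2 scale.

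At the neuromuscular junction, 11 genes had a median log2 fold change of 0.11. Chrnb1 had 586, 509 and 685 in Bmal1-/- mice, against 292, 428 and 368 in Bmal1+/- mice, with no overlap (log2 fold change 0.69, SE 0.14, adjusted p = 0.13 from limma). Chrna1, the alpha subunit of the same receptor, was at 214, 207 and 288 in Bmal1-/- mice, against 145, 187 and 144 in Bmal1+/- mice, again with no overlap (log2 fold change 0.53, SE 0.14, limma adjusted p = 0.28). Both missed the threshold with limma, and the test built after Cyber-T called both.

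Of the abundant muscle genes, Acta1, Ckm, Myh4 and Tnnt3 overlapped between genotypes. Acta1, the actin of skeletal muscle, averaged 15579.8 ± 538 in Bmal1-/- mice against 16109 ± 1270 in Bmal1+/- mice, and Tnnt3, a fast troponin, averaged 9069 ± 713 in Bmal1-/- mice against 9067 ± 1330 in Bmal1+/- mice (SD, n = 3). Over the 28 striated muscle genes the median log2 fold change was −0.03, and the extremes were Actc1, the cardiac actin, at −1.09 (adjusted p = 0.35 from limma) and Xirp1 at 0.78 (adjusted p = 0.38). The median was −0.07 for 12 genes of fast fibres, where Myh2 had the largest difference (−0.49, limma adjusted p = 0.24, with no overlap between genotypes), and −0.06 for 9 genes of slow fibres. For 12 genes of muscle fuel use and protein breakdown it was 0.12, with Pdk4 at 0.82 and Mstn, or myostatin, at −0.73, and Pdk4 varied by a factor of 8.98 among the Bmal1-/- mice. In the other cell types of skin the medians were −0.03 for 7 smooth muscle, 0.09 for 7 adipocyte, −0.05 for 2 brown adipocyte, −0.08 for 6 keratinocyte, 0.13 for 4 endothelial, 0.11 for 2 Schwann cell and −0.12 for 4 leukocyte genes.

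**Figure D4:**
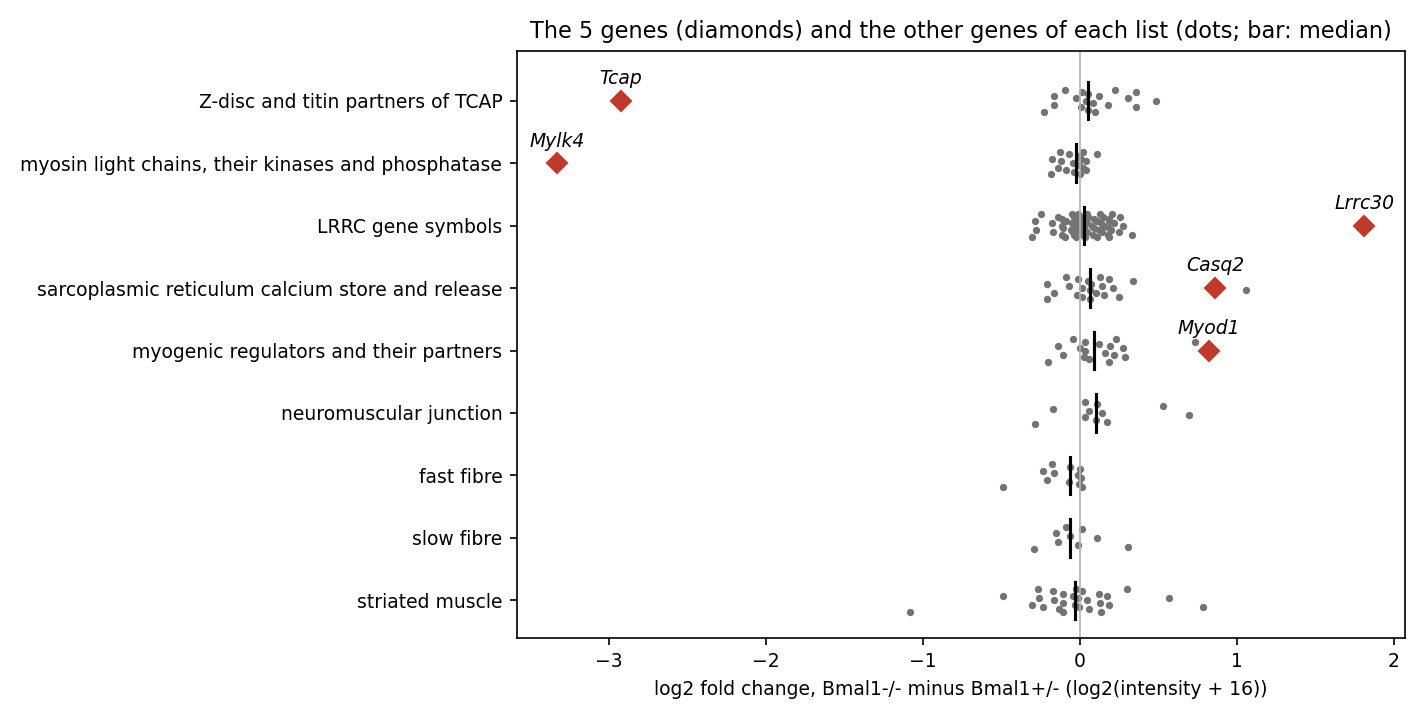
Log2 fold change, Bmal1-/- minus Bmal1+/- (horizontal axis), of the 5 genes (red diamonds) beside the other genes of the list nearest to each in function or name (grey dots, with a bar at the median), and of 4 further muscle lists. Tcap at −2.93, Mylk4 at −3.33 and Lrrc30 at 1.81 lie outside the dots of their lists, while Sln at 1.06 lies beyond Casq2 at 0.86. The 5 genes were chosen for their difference on this contrast, so nothing is read from these positions.

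The targeted gene itself, listed as Arntl, was read at 569, 609.8 and 664 in Bmal1-/- mice, against 325, 364.5 and 355.5 in Bmal1+/- mice. It passed as higher in Bmal1-/- skin (log2 fold change 0.79, SE 0.08, adjusted p = 0.0037 from limma). After the shift of each array by the muscle list, Arntl was at 0.83 and did not pass with limma. No source used here says whether its probes fall inside the deletion, and its level is therefore no test of the genotype labels.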

How the data were processed

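Dorsal skin RNA of 6 mice, 3 of each genotype, was hybridised to 1 array per mouse. The deposited values are linear intensity per probe set, and the submitters' processing notes name PLIER 2.0 and Expression Console 1.1 as tools. How background and arrays were adjusted, and the genome build: not given in the sources used here. Genotypes came from the sample labels, which give separate mice. Of 35557 probe sets, the 23410 with a gene symbol in the platform annotation were fitted as log2(intensity + 16) with limma 3.58.1 in R 4.3.3 (lmFit, eBayes with an intensity trend), two-sided, with Benjamini-Hochberg adjustment over all of them and a threshold of 0.05. A gene with several probe sets was represented by its brightest. The offset and the variance model could change the numbers, and the number of arrays limits the precision. The fit was tested on simulated data. The methods name Cyber-T, and a test built after it (window of 101 probe sets, prior weight of 10) was an alternative, as were other offsets, normalizations, filters, a sex term, a replicate block and leaving out each array. Named genes were the 5 genes, their paralogs, abundant muscle genes, the genes of each list with the largest difference and the 3 closest patterns. The 5 genes and the lists were chosen with earlier results of these data known. Promoters came from RefSeq (GRCm38.p6).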

Additional observations from a re-analysis of the deposited data

How the results depend on the processing

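All 5 log2 fold changes kept their sign under every planned setting in which they were computed. The genotypes did not overlap for any of the 5, so another offset or leaving out 1 mouse could not reverse a sign. The 5 genes were chosen on this contrast, so no support is drawn from the kept signs. Leaving out 1 mouse at a time gave −3.12 to −2.71 for Tcap, −3.52 to −3.01 for Mylk4, 1.60 to 2.00 for Lrrc30, 0.73 to 0.95 for Casq2 and 0.66 to 0.95 for Myod1. Mylk4 was at −2.63 with an offset of 64, because its Bmal1-/- values lie near that offset. Over all probe sets, 31 were lower and 23 higher in Bmal1-/- skin. These counts were 19 and 15 over all 35557 rows, 16 and 11 without the intensity trend, 185 and 102 with the test built after Cyber-T, and 93 and 59 at the methods' threshold of 0.001 on the unadjusted p. Leaving out 1 mouse gave 22 to 34 lower and 13 to 23 higher, with 13 higher without Bmal1-/- replicate 3 and 15 without Bmal1-/- replicate 1 or without Bmal1+/- replicate 2. For the lists, the 8 genes called by the test built after Cyber-T were Pdlim3, Sln, Myf6, Myh2, Xirp1, Actc1, Chrna1 and Chrnb1. With limma, Myh2 passed without Bmal1+/- replicate 1 (and with a sex term, which fits that mouse alone), Sln passed without Bmal1+/- replicate 3, and Actc1, Pdk4 and Sln passed after the shift by the muscle list, which itself holds Actc1. With a replicate block 34 probe sets were lower and 20 higher. Deviations of mice with the same replicate number correlated at 0.0778, −0.346 and 0.0559 over probe sets. Those of mice with different numbers correlated at −0.263 to 0.259. These values cannot tell whether mice were paired as littermates, and the labels do not say that the replicate numbers pair them. The number of arrays limits all of these values.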
